A study of Mus musculus with 2 samples.

Results

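The 35 interferon-stimulated genes described here are a fixed list of mouse genes known to be switched on by interferons. They were followed across the cells of mouse blood, and all 35 are among the 31053 genes listed in the count matrices. The study profiled single cells of peripheral blood from wild-type (wt) mice and from db/db mice, which lack a working leptin receptor and become obese and diabetic. Both groups were male mice of the C57BLKs/J strain, 21 weeks of age, with no treatment given in the labels, and each group of 3 mice was sequenced as 1 library, from 200 µl of blood per group. Blood was drawn behind the eye into heparin, and red cells were lysed in 2 rounds before droplet capture with the 10x Genomics 3′ chemistry.

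Interferons are secreted signals that cells release when they sense viral nucleic acid. Type I interferons bind a receptor present on nearly all cells, and Janus kinases there phosphorylate STAT proteins. These join IRF9 in a complex that enters the nucleus and binds the interferon-stimulated response element (ISRE) in the promoters of its target genes. Their products block viral entry, translation and replication, and in blood they are commonly read as a signature of interferon exposure. Interferon-gamma, made mainly by T cells and natural killer (NK) cells, acts through a receptor of its own on an overlapping set of genes and on antigen presentation.

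The wt library held 16700 barcodes with 50540198 unique molecular identifiers (UMIs, each a counted RNA molecule), and the db/db library held 19912 barcodes with 70039773 UMIs. Barcodes with 200 to 6000 genes and under 10% mitochondrial UMIs were kept, 5727 in wt and 6109 in db/db, with a median of 2562 and 2523 UMIs. The libraries shared 91 barcodes, of which 11 were kept in both. Despite the lysis, haemoglobin took 36.7% of kept UMIs in wt and 40.5% in db/db. Gm42418, a gene that overlaps ribosomal RNA, took a median of 2.64% of a cell's UMIs in wt and 0.533% in db/db. A list of 10 kidney tubule markers summed to 2.70 CPM (UMIs per 1000000 UMIs of the class) in wt neutrophils (1 of 10 detected) and 108 CPM in db/db neutrophils (8 of 10 detected), and it was higher in db/db in each class. The part of these differences in the results was not tested.

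Cells were grouped by clustering without the 35 genes and without further lists of interferon response genes, and clusters were named from lineage markers. The classes held 164 wt and 358 db/db neutrophils, 125 and 368 monocytes, 2136 and 2078 B cells, 715 and 527 T cells, and 104 and 55 NK cells. A further 127 and 327 barcodes were platelets, 1638 and 1207 were erythroid (red cell) barcodes, and 718 and 1189 were in no class used here. All 15 neutrophil markers were detected in the neutrophils of both libraries, at a summed 103310 and 104490 CPM, and all 18 monocyte markers in the monocytes, at 23830 and 26426. Most wt B cells lay in another cluster (1160 cells of cluster 0) than most db/db B cells (1100 cells of cluster 1). The largest monocyte cluster was cluster 14 in wt (72 cells) and cluster 15 in db/db (189 cells), and the largest erythroid cluster was 3 in wt (799) and 2 in db/db (697).

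The promoters of the genes were examined for the ISRE, searched as GAAANNGAAA on either strand (TTTCNNTTTC when read on the other). RefSeq promoters of the GRCm38.p6 build, each running from 250 bases before a transcription start to 50 after it, were available for 28 of the 35 genes. Of these, 13 held at least 1 match (46.4%), against 3.99% of all 27025 genes in the table. The gamma-activated site, searched as TTCNNNGAA, was found in 3 of the 28 (10.7%) and in 9.55% of all genes. A match is a stretch of letters, and binding was not measured. The windows that follow surround the matches of 7 genes that had lower levels in db/db neutrophils by more than 1.5-fold, written 5′ to 3′ on the strand of the gene, with the ISRE letters in capitals and the flanking bases in lower case.

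Isg15, chr4:156200860-156200911, minus strand: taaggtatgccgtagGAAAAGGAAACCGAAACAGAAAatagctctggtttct
Ifit1, chr19:34640770-34640828, plus strand: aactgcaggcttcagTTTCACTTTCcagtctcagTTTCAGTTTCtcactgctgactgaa
Ifit3, chr19:34583358-34583431, plus strand: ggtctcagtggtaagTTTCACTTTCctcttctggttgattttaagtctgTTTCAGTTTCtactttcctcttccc
Ifit3b, chr19:34607754-34607827, plus strand: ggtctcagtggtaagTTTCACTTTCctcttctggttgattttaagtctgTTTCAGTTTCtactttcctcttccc
Rsad2, chr12:26456548-26456587, minus strand: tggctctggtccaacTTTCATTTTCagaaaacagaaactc
Oas3, chr5:120777710-120777749, minus strand: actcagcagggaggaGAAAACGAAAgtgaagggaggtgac
Slfn5, chr11:82951932-82951971, plus strand: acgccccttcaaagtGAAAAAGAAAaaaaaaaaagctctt

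Isg15 carried 3 overlapping matches in the window shown, which runs from 93 to 42 bases before its start, and Ifit1, Ifit3 and Ifit3b carried 2 each. The 2 listed promoters of Ifit2 held 0 matches. The windows of Ifit3 and Ifit3b were the same in 74 of 74 bases. These genes are near-identical copies, so UMIs counted for either may belong to the other. The next windows are of the other genes with a match before the start, and of these Ifi203 and Trim30a were also past 1.5-fold lower in db/db neutrophils. Trim30a and Ifi203 each have a pair of listed starts, and the window shown is at the first for Trim30a and at the second for Ifi203. The windows of Ifi203 and Ifi213, which belong to the same gene family, were the same in 28 of 40 bases.

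Stat2, chr10:128270261-128270300, plus strand: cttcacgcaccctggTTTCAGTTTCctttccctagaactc
Ifi203, chr1:173942503-173942542, minus strand: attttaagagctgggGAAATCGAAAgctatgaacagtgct
Ifi213, chr1:173599321-173599360, minus strand: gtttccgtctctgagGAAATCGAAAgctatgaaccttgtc
Trim30a, chr7:104465205-104465244, minus strand: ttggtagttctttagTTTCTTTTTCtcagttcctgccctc
Bst2, chr8:71537572-71537617, minus strand: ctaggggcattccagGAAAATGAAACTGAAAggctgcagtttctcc

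**Figure D1:**
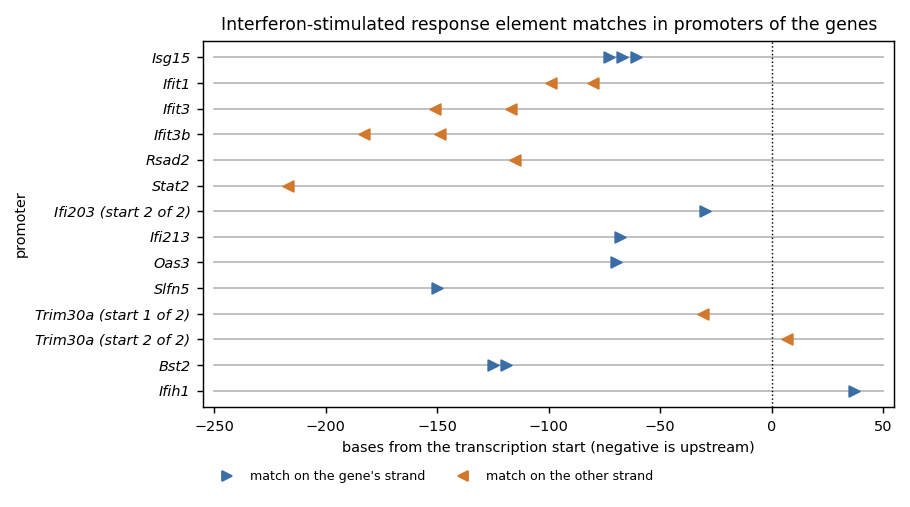
Positions of ISRE matches (GAAANNGAAA on either strand) in bases from the transcription start, for the 14 promoters of 13 genes that held a match, with triangles pointing along the strand of the match. Isg15 shows 3 overlapping matches and Ifit1, Ifit3 and Ifit3b 2 each, and 12 of the 14 promoters carry their matches upstream of the start.

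The summed level of the 35 genes was compared between the libraries class by class. The sum is given in CPM, with an exact 95% Poisson interval, and the db/db over wt ratio with an exact 95% binomial interval. With 1 library per group, no test between genotypes can be made, genotype cannot be told apart from library or from the mice drawn, and all intervals and detection floors cover counting error only. Neutrophils held 6552 CPM in wt (6294 to 6818) against 2227 CPM in db/db (2119 to 2339). The db/db neutrophil level was the lower, at 0.340 of the wt level (0.319 to 0.362). Monocytes held 4891 CPM in wt (4712 to 5074) against 3070 CPM in db/db (2990 to 3151), so that the ratio was 0.628 (0.600 to 0.657). B cells held 2629 CPM in wt (2586 to 2671) against 1846 CPM in db/db (1809 to 1884), which gives 0.702 of the wt level (0.684 to 0.721). The corresponding T cell sums were 2463 CPM (2406 to 2521) and 1784 CPM (1724 to 1846), a ratio of 0.724 (0.695 to 0.755). In each of these 4 classes the wt library was higher and the intervals did not overlap.

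The summed level in NK cells did not show this difference. Their sums were 1657 CPM in wt (1526 to 1795) against 1661 CPM in db/db (1475 to 1864). The ratio was 1.00 (0.868 to 1.16), so a difference of the size seen in the B or T cell sums lay outside the interval. The NK sum had another make-up, led in wt by Ifi203 and Epsti1 (16.1% of its UMIs each). Ifi27l2a, which led the wt sums of neutrophils, monocytes, B cells and T cells (22.2%, 27.1%, 20.6% and 16.8%), had 6 wt and 0 db/db UMIs in NK cells. The part of this make-up in the NK ratio was not tested. Platelets, with the fewest UMIs of the 35 genes (218 in wt and 135 in db/db), held 1410 CPM (1229 to 1610) and 408 CPM (342 to 482), a ratio of 0.289 (0.231 to 0.360). This ratio was 0.626 when barcodes with under 500 genes were left out. Erythroid barcodes held 1116 CPM (1090 to 1141) and 915 CPM (891 to 939), a ratio of 0.820 (0.792 to 0.849), and 0.592 when haemoglobin, mitochondrial and Gm42418 UMIs were left out of the total. Other markers in the neutrophil class moved as well. Core markers of neutrophils summed to 7862 CPM in wt against 12327 CPM in db/db, of erythroid cells to 662 and 1015, of platelets to 1396 and 1035, of B cells to 365 and 300, and of T cells to 78.3 and 34.9. The full list of 16 T cell markers stood at 300 CPM in wt (16 detected) and 117 CPM in db/db (13 detected), and that of 15 B cell markers at 1199 and 715 CPM (15 detected in both). The part of these cells in the neutrophil values was not tested. Cells with markers of several lineages made up 48.2% of wt and 45.8% of db/db neutrophils. Without them the neutrophil ratio was 0.388. In monocytes the core NK markers stood at 176 CPM in wt against 3.28 CPM in db/db, the core B cell markers at 286 and 150 CPM, and the ratio without cells of several lineages was 0.730. The core monocyte markers stood at 1573.4 CPM in wt against 3213.5 CPM in db/db monocytes. The part of this make-up in the monocyte ratio was not tested.

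**Figure D2:**
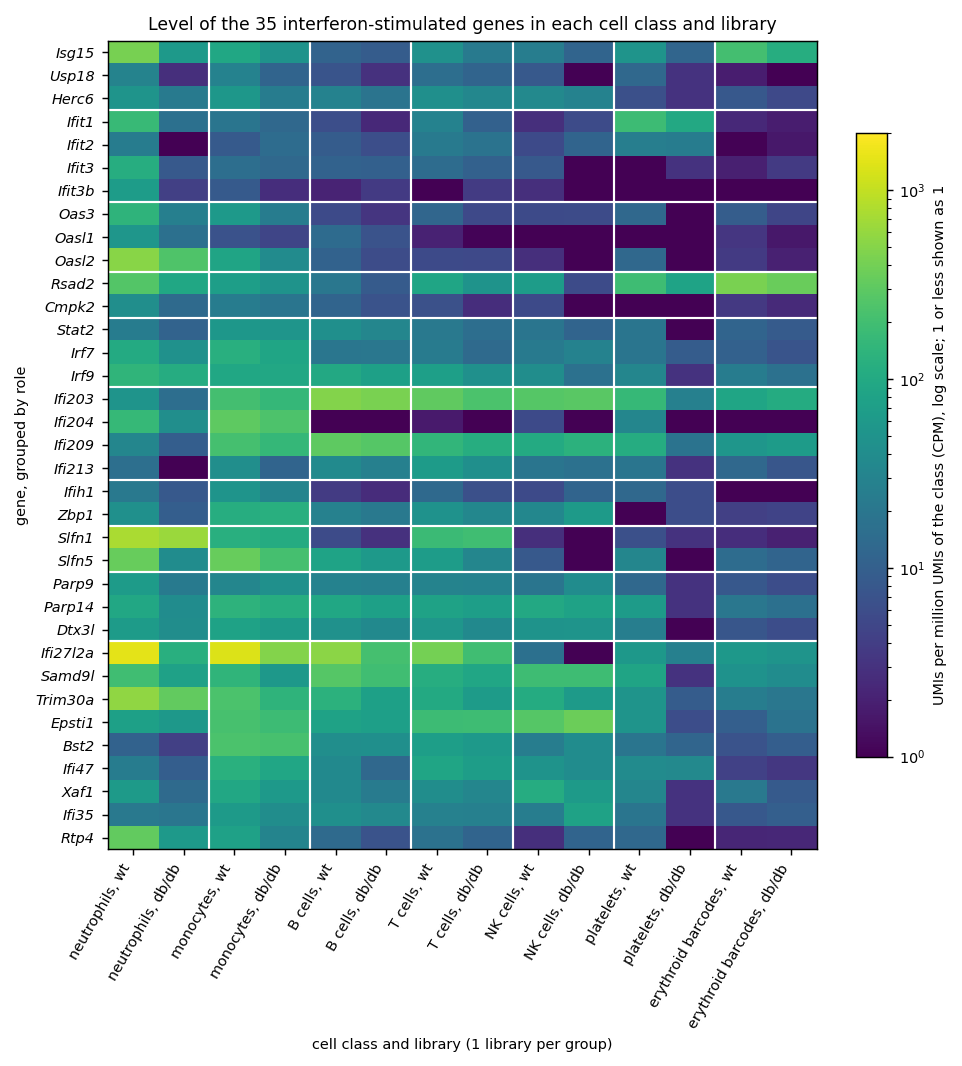
Level of each of the 35 genes (rows, grouped by role) in each cell class and library (columns), in CPM on a log colour scale with values of 1 or less shown as 1, 1 library per group. Ifi27l2a in wt neutrophils, at 1453 CPM, is the brightest tile of its row, and the wt neutrophil column is brighter than the db/db column beside it in all 35 rows.

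The ISG15 group holds Isg15, a ubiquitin-like protein that is attached to other proteins, Herc6, a ligase that attaches it, and Usp18, the protease that removes it and that also damps the type I receptor. In neutrophils the 3 genes summed to 508 CPM in wt against 83.8 CPM in db/db, a ratio of 0.165 (0.121 to 0.222). Isg15 itself stood at 427 CPM in wt against 58.6 CPM in db/db neutrophils. It was at 93.0 and 49.2 CPM in monocytes, 11.4 and 9.17 CPM in B cells, and 46.4 and 22.9 CPM in T cells. The db/db library was the lower in all 4, with the largest gap in neutrophils (ratio 0.137, 0.0954 to 0.194) and an interval that included 1 in B cells (0.803, 0.538 to 1.19). In NK cells 9 Isg15 UMIs were counted in wt and 2 in db/db (25 and 11.5 CPM, ratio 0.460, 0.0483 to 2.22), and in platelets 8 and 4 (51.7 and 12.1 CPM). Erythroid barcodes held 205 and 114 CPM of Isg15, a ratio of 0.555 (0.505 to 0.609). Herc6 was at 51.3 CPM in wt against 22.3 CPM in db/db neutrophils and at 55.1 and 24.1 CPM in monocytes. Usp18 was counted 11 times in wt neutrophils and 2 times in db/db neutrophils (29.7 and 2.79 CPM, ratio 0.0940, 0.0101 to 0.431).

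The IFIT proteins bind viral RNA that lacks the cap methylation of host messages. Their 4 genes lie side by side on chromosome 19, from Ifit2 (chr19:34550694-34576419) to Ifit1 (chr19:34640871-34650009) in GRCm38. Together they stood at 373 CPM in wt neutrophils (138 UMIs) and 29.3 CPM in db/db neutrophils (21 UMIs). The wt level was the higher in neutrophils, with a ratio of 0.0787 (0.0472 to 0.125), the lowest of the 10 roles in that class. Ifit1 had 167 CPM in wt against 16.8 CPM in db/db neutrophils, Ifit3 had 113 and 8.38 CPM, and Ifit3b had 67.5 and 4.19 CPM (25 and 3 UMIs, ratio 0.0620, 0.0120 to 0.203). Ifit2 was counted 9 times in wt neutrophils (24.3 CPM) and 0 times in db/db, where 3 counts would be 4.19 CPM. The IFIT sum was far nearer between the libraries in monocytes, at 51.6 CPM in wt against 43.8 CPM in db/db (0.847, 0.551 to 1.34). Monocyte Ifit2 was the higher in db/db, on 5 wt and 27 db/db UMIs (8.61 and 14.8 CPM, log2 ratio 0.41), with a ratio interval of 0.651 to 5.71. Each log2 ratio here is taken after adding 10 CPM to both levels. In T cells Ifit1 was at 29.3 CPM in wt against 10.7 CPM in db/db, and in B cells at 6.24 and 2.39 CPM.

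Rsad2 encodes viperin, an enzyme that makes a chain-terminating nucleotide, and Cmpk2, its neighbour on chromosome 12, encodes a nucleotide kinase. Rsad2 was at 265 CPM in wt against 93.6 CPM in db/db neutrophils, 70.6 and 49.8 CPM in monocytes, and 20.5 and 8.97 CPM in B cells. It was at 88.0 and 49.1 CPM in T cells, 188 and 81.5 CPM in platelets, and 431 and 352 CPM in erythroid barcodes. The wt library was the higher in each, from a log2 ratio of -1.41 in neutrophils to -0.28 in erythroid barcodes. In NK cells 24 UMIs were counted in wt and 1 in db/db (66.7 and 5.75 CPM), a ratio of 0.0862 with an interval of 0.00210 to 0.528. Rsad2 was the only gene of the list with its highest level in erythroid barcodes in both libraries, and haemoglobin made up 3.81% (db/db B cells) to 27.0% (db/db neutrophils) of the UMIs of the leukocyte classes. Cmpk2 was at 43.2 CPM in wt against 14 CPM in db/db neutrophils and at 11.6 and 6.97 CPM in B cells.

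The OAS group comprises Oas3, which senses double-stranded RNA and makes the messenger that activates RNase L, and the OAS-like genes Oasl1 and Oasl2. In neutrophils the group summed to 710 CPM in wt against 289 CPM in db/db (0.407, 0.338 to 0.490), in monocytes to 150 and 67.8 CPM (0.453, 0.342 to 0.603), and in B cells to 30.5 and 15.9 CPM (0.523, 0.396 to 0.686). The 3 ratios had overlapping intervals. Oas3 was at 140 CPM in wt against 26.5 CPM in db/db neutrophils, Oasl2 at 516 and 246 CPM, and Oasl1 at 54.0 and 16.8 CPM. In T cells Oas3 was at 12.2 and 5.33 CPM (log2 ratio -0.54), while Oasl2 was at 5.59 and 5.33 CPM (-0.02). B cell Oasl1 was at 14.1 and 6.97 CPM, a ratio of 0.495 (0.323 to 0.746).

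The PYHIN genes Ifi203, Ifi204, Ifi209 and Ifi213 encode nuclear or cytosolic proteins, some of which bind DNA. They form a family on chromosome 1 whose members share sequence, so UMIs may be divided between them with some error. Their sum was 265 CPM in wt against 68.4 CPM in db/db neutrophils, a ratio of 0.258 (0.180 to 0.368), and 763 and 563 CPM in monocytes (0.738, 0.660 to 0.827). In B cells, where the family was at 839 CPM in wt against 731 CPM in db/db, the ratio was 0.871 (0.834 to 0.910). Ifi203 was at 51.3 CPM in wt against 15.4 CPM in db/db neutrophils, 208 and 156 CPM in monocytes, 492 and 436 CPM in B cells, and 310 and 233 CPM in T cells. These 4 classes were all lower in db/db, whereas NK cells held 267 and 287 CPM (1.08, 0.749 to 1.53). Platelets held 162 and 27.2 CPM of Ifi203, and erythroid barcodes 88.0 and 106 CPM (1.2, 1.07 to 1.35). Ifi209 followed the same order, with 32.4 CPM in wt against 9.77 CPM in db/db neutrophils, 212 and 159 CPM in monocytes, 308 and 267 CPM in B cells, and 149 and 115 CPM in T cells. NK cells held 103 and 132 CPM of Ifi209, platelets 110 and 18.1 CPM, and erythroid barcodes 54.7 and 65.2 CPM.

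Both genes had their highest level in B cells, so their counts in other classes were set against B cell core markers. For every 100 B cell marker UMIs, B cells held 6.49 Ifi203 UMIs in wt and 6.26 in db/db. Erythroid barcodes held 8.86 and 6.86, and platelets 16.2 and 6.98. The B cell marker level in platelets was 996 CPM in wt against 389 CPM in db/db, and in erythroid barcodes 993 and 1544 CPM, so it moved in the same direction as Ifi203 in both. Its part in the Ifi203 and Ifi209 values of these barcodes was not tested. T cells, with 112 and 61.0 Ifi203 UMIs per 100 B cell marker UMIs, carried the gene far above that level. Ifi204 was a gene of myeloid cells, at 300 CPM in wt against 236 CPM in db/db monocytes, 165 and 43.3 CPM in neutrophils, and under 2 CPM in B and T cells. Ifi213 was at 43.0 CPM in wt against 11.5 CPM in db/db monocytes, a ratio of 0.267 (0.142 to 0.497), and at 65.7 and 43.7 CPM in T cells.

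The cytosolic sensors were Zbp1, which recognises left-handed nucleic acid and can start necroptosis, and Ifih1, which encodes the RNA sensor MDA5. Zbp1 was at 45.9 CPM in wt against 9.77 CPM in db/db neutrophils, the lower level being that of db/db. Monocyte Zbp1 was at 115 and 121 CPM (1.05, 0.798 to 1.41), a range that includes no difference. In NK cells it was at 33.4 and 63.2 CPM on 12 and 11 UMIs, with an interval of 0.758 to 4.69. Ifih1 was at 51.6 CPM in wt against 31.2 CPM in db/db monocytes (log2 ratio -0.58), just inside the 1.5-fold limit used below.

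The transcription factor genes Irf7, Irf9 and Stat2, which carry and amplify the type I signal, were nearer between the libraries in neutrophils than the ISG15 or IFIT genes. They summed to 273 CPM in wt against 169 CPM in db/db neutrophils (0.619, 0.472 to 0.815) and to 269 and 234 CPM in monocytes (0.872, 0.724 to 1.05). Irf9 was at 143 CPM in wt against 112 CPM in db/db neutrophils, 93.0 and 95.2 CPM in monocytes, 98.9 and 74.9 CPM in B cells, and 72.3 and 45.3 CPM in T cells. It was lower in db/db in all of these but monocytes, and the intervals of neutrophils (0.545 to 1.13) and monocytes (0.751 to 1.42) included 1. NK cells held 41.7 and 17.2 CPM of Irf9 (15 and 3 UMIs, ratio 0.414, 0.0768 to 1.46), platelets 32.3 and 3.02 CPM (5 and 1 UMIs), and erythroid barcodes 24.2 and 17.2 CPM. Irf7, the factor that sustains interferon-alpha production, was at 105 CPM in wt against 46.1 CPM in db/db neutrophils, 120 and 86.4 CPM in monocytes, and 19.6 and 20.1 CPM in B cells. Stat2 was at 55.1 and 52.5 CPM in monocytes and at 44.2 and 32.5 CPM in B cells.

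The Schlafen genes Slfn1 and Slfn5, neighbours on chromosome 11, regulate growth and viral replication in lymphoid and myeloid cells, and they parted in neutrophils. Slfn5 was at 340 CPM in wt against 40.5 CPM in db/db neutrophils, a ratio of 0.119 (0.0766 to 0.179). Slfn1 was at 751 CPM in wt against 634 CPM in db/db neutrophils, a ratio of 0.844 (0.726 to 0.984). The Slfn1 levels of the libraries thus lay near each other in the cells where Slfn5 differed most. Slfn5 was at 341 and 213 CPM in monocytes, 81.5 and 59.8 CPM in B cells, 67.8 and 33.1 CPM in T cells, and 14.8 and 11.7 CPM in erythroid barcodes. In NK cells 3 Slfn5 UMIs were counted in wt and 0 in db/db, and in platelets 5 and 0, where 3 counts in db/db would be 17.2 and 9.06 CPM. Slfn1 was at 120 and 108 CPM in monocytes, 5.71 and 2.99 CPM in B cells, 178 and 196 CPM in T cells (1.10, 0.963 to 1.27), and 2.73 and 1.98 CPM in erythroid barcodes. NK cells had 1 and 0 Slfn1 UMIs, and platelets 1 and 1. The RefSeq promoter of Slfn1 held no ISRE match, and that of Slfn5 held the match printed above. Promoters of Irf7, Oasl1, Oasl2, Xaf1, Cmpk2, Samd9l and Herc6 also held none, and these genes were past 1.5-fold lower in db/db neutrophils. Those of Irf9, Dtx3l, Epsti1 and Ifi35 held none either, and these genes differed by less. A link between matches and the size of the difference was not tested.

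Parp14 and Parp9 encode ADP-ribosyltransferases, and Dtx3l encodes the ubiquitin ligase that partners Parp9. The 3 genes lie together on chromosome 16, where Parp9 and Dtx3l overlap on opposite strands. Parp14 was at 94.5 CPM in wt against 40.5 CPM in db/db neutrophils, 136 and 114 CPM in monocytes, 91.6 and 74.3 CPM in B cells, and 79.3 and 70.4 CPM in T cells. It was the lower in db/db in each, with intervals that included 1 in monocytes (0.646 to 1.10) and T cells (0.711 to 1.11). NK cells held 97.3 and 80.5 CPM, platelets 64.7 and 3.02 CPM (10 and 1 UMIs, ratio 0.0467, 0.00108 to 0.328), and erythroid barcodes 20.5 and 16.4 CPM. Parp9 was lower in db/db neutrophils (64.8 and 22.3 CPM in wt and db/db) and higher in db/db monocytes (32.7 and 45.4 CPM, log2 ratio 0.38), the latter with an interval of 0.836 to 2.42. Dtx3l, at 64.8 CPM in wt against 41.9 CPM in db/db neutrophils, had a log2 ratio of -0.53 and an interval of 0.365 to 1.16.

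Of the other effectors, Ifi27l2a, a small membrane protein of the IFI27 family (chr12:103442167-103443680), held the most UMIs of the list in kept barcodes of both libraries together. In db/db alone its 3002 UMIs were fewer than the 4138 of Ifi203 and the 3700 of Rsad2. It was at 1453 CPM in wt against 120 CPM in db/db neutrophils, 1324 and 486 CPM in monocytes, 541 and 211 CPM in B cells, and 414 and 193 CPM in T cells. The wt level was the higher in all 4, and the ratio was 0.0826 (0.0650 to 0.104) in neutrophils, 0.367 (0.333 to 0.405) in monocytes, 0.391 (0.364 to 0.419) in B cells and 0.465 (0.412 to 0.523) in T cells. Erythroid barcodes held 56.8 and 51.7 CPM (0.910, 0.781 to 1.06), and platelets 58.2 and 27.2 CPM on 9 UMIs each. In NK cells 6 UMIs were counted in wt (16.7 CPM) and 0 in db/db, where 3 counts would be 17.2 CPM. Ifi27l2a made up 22.2% of the listed genes' UMIs in wt neutrophils and 27.1% in wt monocytes, against 15.8% in db/db monocytes.

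Trim30a, a ubiquitin ligase that limits inflammatory signalling, differed by a like amount in 5 classes. It was at 573 CPM in wt against 323 CPM in db/db neutrophils, 232 and 139 CPM in monocytes, 134 and 75.1 CPM in B cells, 102 and 64.0 CPM in T cells, and 108 and 63.2 CPM in NK cells. All 5 leukocyte classes were lower in db/db, with log2 ratios from -0.81 to -0.60, although the NK interval (0.269 to 1.16) included 1. Platelets held 51.7 and 9.06 CPM (8 and 3 UMIs, ratio 0.175, 0.0299 to 0.729), and erythroid barcodes 25.1 and 20.3 CPM. It was past 1.5-fold lower in all 5 leukocyte classes, which only genes measured in each of them could be, and no other such gene was. Ifi27l2a, not measured in NK cells, was past the limit in the other 4 classes. Samd9l, a brake on cell growth and viral translation, was at 192 CPM in wt against 76.8 CPM in db/db neutrophils, 143 and 57.4 CPM in monocytes, 271 and 193 CPM in B cells, and 114 and 90.7 CPM in T cells. NK cells held 186 and 190 CPM of Samd9l (1.02, 0.650 to 1.57), platelets 84.1 and 3.02 CPM (13 and 1 UMIs, ratio 0.0359, 0.000845 to 0.239), and erythroid barcodes 47.7 and 40.6 CPM.

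Epsti1, which acts in interferon and NF-kappaB signalling, differed by less than 1.5-fold in the 5 leukocyte classes. It was at 75.6 CPM in wt against 57.2 CPM in db/db neutrophils, 219 and 185 CPM in monocytes, 80.6 and 73.1 CPM in B cells, and 184 and 187 CPM in T cells. NK cells held 267 and 362 CPM, with the db/db level the higher and an interval of 0.972 to 1.88. Platelets held 51.7 and 6.04 CPM (8 and 2 UMIs, ratio 0.117, 0.0121 to 0.585), and erythroid barcodes 10.0 and 18.2 CPM, a log2 ratio of 0.49. Bst2, the tetherin that holds budding virus at the cell surface, was at 231 CPM in wt against 222 CPM in db/db monocytes and at 42.6 and 44.4 CPM in B cells. Rtp4, a chaperone of membrane receptors with antiviral action, was at 321 CPM in wt against 58.6 CPM in db/db neutrophils and at 77.5 and 31.2 CPM in monocytes. Ifi47, an interferon-inducible GTPase, was at 37.1 CPM in wt against 13.2 CPM in db/db B cells, a ratio of 0.355 (0.265 to 0.470). Its level was nearer between the libraries in monocytes (124 and 90.3 CPM) and T cells (87.3 and 69.3 CPM). Xaf1, which promotes apoptosis, was at 62.1 CPM in wt against 14 CPM in db/db neutrophils and at 96.4 and 59.1 CPM in monocytes, where its log2 ratio turned from -0.62 to 0.20 with cells thinned to 1000 UMIs. In NK cells Xaf1 was at 111 and 63.2 CPM with an interval of 0.263 to 1.13, and in erythroid barcodes at 21.5 and 8.59 CPM (0.399, 0.285 to 0.552). Ifi35 was at 25 CPM in wt against 80.5 CPM in db/db NK cells (9 and 14 UMIs), a ratio of 3.22 (1.30 to 8.43), but at 63.7 and 41.0 CPM in monocytes (0.644, 0.429 to 0.983) and 21.6 and 19.5 CPM in neutrophils.

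Counted gene by gene, all 35 genes had a lower level in db/db than in wt neutrophils, and 31 did in monocytes, 32 in B cells, 32 in T cells, 19 in NK cells, 30 in platelets and 25 in erythroid barcodes. Among measured genes of the list, those below 0 were 27 of 27 in neutrophils, 29 of 33 in monocytes, 31 of 34 in B cells, 30 of 32 in T cells, 5 of 12 in NK cells, 4 of 4 in platelets and 22 of 30 in erythroid barcodes. Of all genes measured, 68.7% were below 0 in neutrophils, 54.9% in monocytes, 52.9% in B cells, 57.6% in T cells, 45.3% in NK cells, 58.4% in platelets and 29.1% in erythroid barcodes. A gene was taken as measured in a class when both libraries together held at least 20 of its UMIs, and as past the limit when its log2 ratio lay beyond 1.5-fold. The minimum can be met through the wt library alone, so these counts describe the genes measured and not the whole list. In neutrophils 27 genes were measured and 22 were past the limit, all lower in db/db, where 16.9% of all 4125 genes measured were lower and 4.48% higher. The median log2 ratio was -1.26, against -0.19 over all genes. The 8 genes not measured there were Ifit2, Stat2, Ifi209, Ifi213, Ifi47, Usp18, Bst2 and Ifih1, with 68 UMIs in wt and 33 in db/db in all (184 and 46.1 CPM). With TMM scaling the median of all neutrophil genes was 0.08, and the list lay -1.10 from it, against -1.07 before. The share of lower calls among all genes past the limit was 79.1% in neutrophils, 39.2% under TMM scaling and 63.2% without haemoglobin, mitochondrial and Gm42418 UMIs in the total.

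In monocytes 33 genes were measured, and 12 were past 1.5-fold lower and 0 higher, where 6.28% of all 7782 genes were lower and 4.63% higher. The count was 4 with cells thinned to 1000 UMIs and at most 14 under the other alternatives. The monocyte median was -0.42 (-0.48 to -0.11 over the alternatives), against -0.04 for all genes, and the 4 genes on the higher side were Irf9, Zbp1, Parp9 and Ifit2. Of 34 genes measured in B cells, 4 (Ifi27l2a, Ifi47, Trim30a and Rsad2) were past the limit, all lower, against 1.08% lower and 0.694% higher among all 10085 genes. The B cell median was -0.32, against -0.01. T cells had 6 of 32 past the limit (Ifi27l2a, Ifit1, Slfn5, Isg15, Rsad2 and Trim30a), all lower, against 1.39% lower and 1.32% higher among 8862 genes, with a median of -0.36 against -0.04. The B cell and T cell counts run from 1 to 14 and from 1 to 11 when the added constant is 50 or 1 CPM. For these alternative counts, here and below, the shares of all genes past the limit are not given. Under TMM scaling the share of lower calls among all genes passed from 57.6% to 40.6% in monocytes and from 51.3% to 38.5% in T cells.

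In NK cells 12 genes were measured, with Rsad2, Xaf1 and Trim30a past the limit lower and Zbp1 and Ifi35 higher, against 10.5% lower and 13.5% higher among all 3765 genes. The NK median was 0.03, beside 0.07 for all genes (-0.06 under TMM, with the list -0.02 from it), and the share of lower calls was 43.8%, or 63.5% under TMM scaling and 67.1% without haemoglobin, mitochondrial and Gm42418 UMIs. All 4 genes measured in platelets, Ifit1, Rsad2, Ifi203 and Ifi209, were past the limit lower (0 to 6 genes over the alternatives, 0 with cells thinned), in a class where 27.3% of all 1801 genes were lower and 10.4% higher. Platelet Ifit1 was at 181 CPM in wt against 99.6 CPM in db/db (0.550, 0.322 to 0.945), and Rsad2 in platelets turned to a log2 ratio of 0.47 without cells that carry markers of several lineages. TMM scaling moved the share of lower platelet calls from 72.3% to 25.6% and the median of all platelet genes from -0.13 to 0.36, and the list lay -1.47 from the first and -1.51 from the second. In erythroid barcodes 2 of 30 genes, Isg15 and Xaf1, were past the limit lower (0 to 17 over the alternatives, 17 without haemoglobin, mitochondrial and Gm42418 UMIs in the total), where 0.399% of all 8275 genes were lower and 6.39% higher. There the median was -0.18 against 0.12 (0.01 for all genes under TMM, with the list -0.29 from it), and the share of lower calls was 5.87%, 38.7% under TMM scaling and 73.0% without haemoglobin, mitochondrial and Gm42418 UMIs. B cell calls, at 60.9% lower, moved to 58.6% and 68.8% under the same settings.

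**Figure D3:**
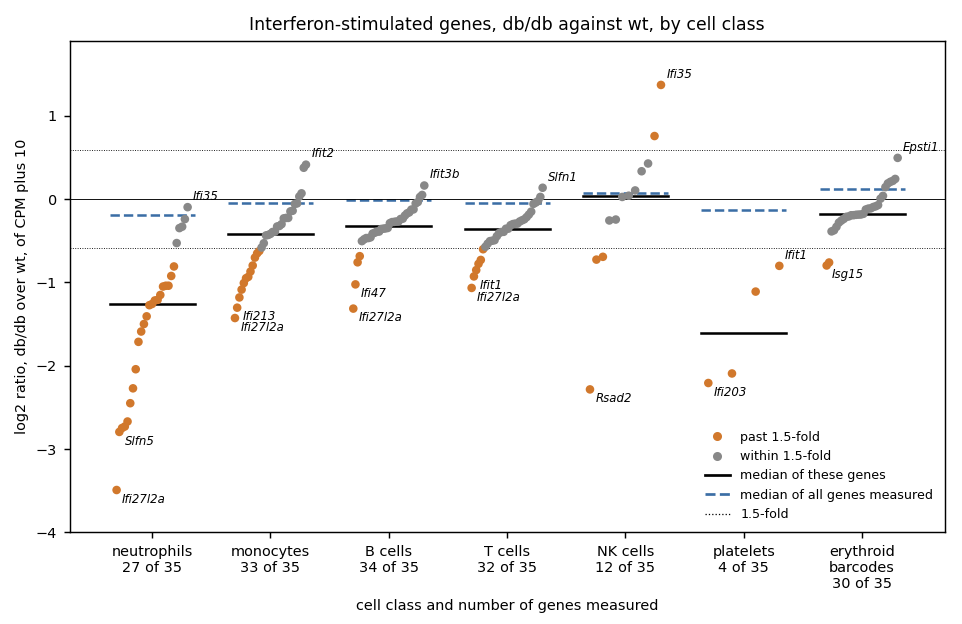
Log2 ratio of db/db to wt (CPM plus 10) for each measured gene of the list in each class, 1 library per group, with points past 1.5-fold in orange, the median of these genes as a black line and that of all genes measured as a dashed blue line. Neutrophil points lie from -3.49 to -0.10, all below 0, and the black line is at -1.26 beside -0.19 for all genes.

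Neutrophils and monocytes were clustered again, each alone and without the interferon genes, to see where within a class the genes were expressed. Neutrophil subcluster 1 (58 wt and 43 db/db cells) held 11184 CPM of the 35 genes in wt (10527 to 11872) and 4048 CPM in db/db (3545 to 4602), the highest of the 5 subclusters in both libraries. It was defined without these genes, and Ifit1, Isg15, Slfn5, Ifit3 and Ifi27l2a were among its 10 leading genes. Those were ranked over both libraries together, and only this neutrophil subcluster held more wt than db/db cells. The part of this composition in the ranking was not tested. In subcluster 0, led by the neutrophil granule and maturation genes Retnlg, Wfdc21, Lcn2 and Ly6g, the sums were 5774 CPM in wt (45 cells) against 2908 CPM in db/db (187 cells), a ratio of 0.504. All 5 subclusters were lower in db/db, with ratios from 0.240 in the haemoglobin-led subcluster 2 to 0.522 in the platelet-led subcluster 3. Subclusters 2, 3 and 4 were led by haemoglobin, platelet and B cell genes.

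Within monocytes the size of the difference varied by subcluster. Classical monocytes, named from 9 markers such as Vcan, Chil3 and Ly6c2, held 9248 CPM in wt (20 cells, 8717 to 9804) against 4091 CPM in db/db (116 cells, 3944 to 4243). The db/db level was 0.442 of the wt level (0.413 to 0.474), with 28 of 30 measured genes below 0 and a median log2 ratio of -0.76. Nonclassical monocytes, named from 8 markers such as Ace, Cd300e and Spn, held 2679 CPM in wt (58 cells) against 2236 CPM in db/db (122 cells), a ratio of 0.835 (0.745 to 0.936). There 11 of 21 measured genes were below 0 and the median was -0.02. Shares and medians over all genes are not given for these subclusters. The counts and medians of the list there thus cannot be set against a background. With the 2 monocyte clusters of all cells in place of the subclusters, the ratios were 0.564 and 0.686. The ratio for classical monocytes rests on 20 wt cells.

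Some single genes showed the same division and others did not. Isg15 was at 303 CPM in wt against 76.1 CPM in db/db classical monocytes, against 10.8 and 22.3 CPM (2 and 8 UMIs) in nonclassical ones. Slfn5 was at 859 and 366 CPM in classical and at 65.1 and 41.8 CPM in nonclassical monocytes. These genes had higher levels in classical than in nonclassical monocytes in both libraries. Ifi204 was at 556 and 347 CPM in classical cells, lower in db/db, and at 168 and 192 CPM in nonclassical cells, slightly higher in db/db. Ifi27l2a differed in both, at 2674 and 775 CPM in classical and 786 and 217 CPM in nonclassical monocytes. Ifi209 was at 65.1 and 109 CPM in nonclassical monocytes, the highest log2 ratio there at 0.66. Ifit2 was counted 0 times in wt and 22 times in db/db classical monocytes (31 CPM in db/db), and 3 counts in wt would be 24.5 CPM there.

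Another monocyte subcluster, led by Siglech, Cd209a and Bst2, genes of dendritic cells, held 3725 CPM in wt (15 cells) against 3822 CPM in db/db (26 cells), a ratio of 1.03 (0.903 to 1.17). The subcluster led by C1qa, C1qb and C1qc, complement genes that macrophages express, held 7026 CPM in wt (10 cells) against 3351 CPM in db/db (25 cells), a ratio of 0.477. In T cells, CD8 T cells held 2485 CPM in wt against 1794 CPM in db/db (0.722), and the subcluster led by Igfbp4 and Cd4 had a ratio of 0.861. The T cell subcluster led by S100a4 and Gzma had the highest sums, 4322 CPM in wt against 3357 CPM in db/db (0.777). The 7 B cell subclusters had ratios from 0.641 to 0.878, all below 1. Within the 2 large B cell clusters that hold most wt and most db/db cells, the ratios were 0.838 and 0.697.

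**Figure D4:**
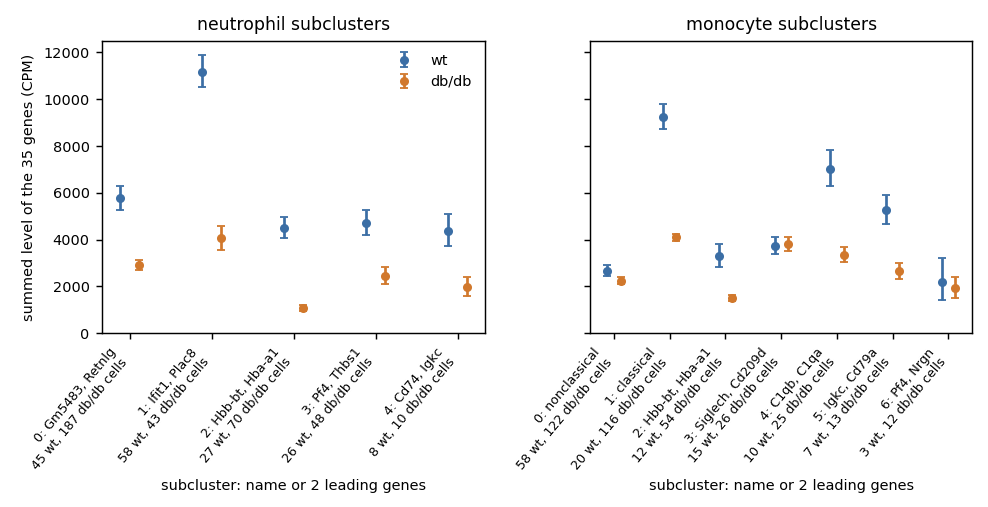
Summed level of the 35 genes in CPM, with exact 95% Poisson intervals as bars, in each neutrophil and monocyte subcluster of wt (blue) and db/db (orange), 1 library each. All 5 neutrophil pairs are lower in db/db, while in monocytes the classical pair (9248 and 4091 CPM) is far apart and the Siglech-led pair (3725 and 3822 CPM) overlaps.

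The genes were next counted per cell, after each cell was thinned to 1000 UMIs in all. Haemoglobin UMIs are part of that total, with a median of 1.74% of a cell in wt and 2.91% in db/db neutrophils. Of wt neutrophils, 51.0% (75 of 147, Clopper-Pearson interval 42.7% to 59.3%) held at least 5 UMIs of the list, against 15.0% (48 of 321, 11.2% to 19.3%) of db/db neutrophils. The median neutrophil held 5 such UMIs in wt and 2 in db/db, so the difference lay in the bulk of the cells. It was also present in the tail, since 22.4% of wt and 3.12% of db/db neutrophils held 10 or more and the highest cells held 56 and 17. Before thinning, 77.4% and 36.6% of neutrophils held at least 5, and 17 wt and 37 db/db cells were too shallow to thin.

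In monocytes the share with at least 5 UMIs was 33.1% in wt (40 of 121) and 20.6% in db/db (74 of 359), and 78.4% and 70.4% before thinning. B cells had 15.9% (330 of 2078) and 6.31% (129 of 2043), and T cells 14.6% (102 of 698) and 8.55% (42 of 491). These lymphocyte shares were lower in db/db, with 56.8% and 36.3% of B cells and 73.0% and 54.6% of T cells before thinning. NK cells had 8% (8 of 100) and 7.41% (4 of 54), near the same. Platelets had 16.2% (6 of 37) and 1.41% (1 of 71), with 90 wt and 256 db/db platelets left out as too shallow. The cells left out as too shallow were 4 and 9 monocytes, 58 and 35 B cells, 17 and 36 T cells, and 4 and 1 NK cells.

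The genes were unevenly spread over neutrophils, and in this class those examined occurred together more clearly in wt than in db/db. After thinning, Isg15 was seen in 19.7% of wt (29 of 147) and 6.54% of db/db neutrophils (21 of 321). Wt neutrophils with an Isg15 UMI held a mean of 14.4 UMIs of the other 34 genes, against 4.90 in those without, and the values in db/db were 4.43 and 2.45. For Isg15 this was not particular to neutrophils. T cells had 8.16 and 2.49 in wt and 4.33 and 1.89 in db/db, and B cells 7.29 and 2.63 in wt and 5.05 and 1.81 in db/db. In monocytes the wider gap was in db/db, at 8.13 and 2.56 (15 cells with Isg15), against 5.43 and 3.88 in wt (7 cells). In db/db the means with and without the gene were 3.48 and 2.42 for Ifi27l2a and 3.71 and 2.52 for Rsad2. They were 1.99 and 1.72 for Slfn1 and 2.35 and 2.22 for Trim30a. Ifit1 and Ifi203 went the other way in db/db, on 3 cells and 1 cell with the gene. Ifi27l2a was seen in 42.9% of wt and 7.79% of db/db neutrophils, whereas Slfn1 was seen in 53.7% and 48.6% and Trim30a in 39.5% and 29.9%. Slfn1 thus marked about the same share of neutrophils in both libraries. B cells served as a comparison for free RNA in the droplets, with median depths of 2464 and 2209 UMIs against 1892 and 1474 in neutrophils. They held Isg15 in 0.818% of wt and 1.03% of db/db cells, and had the lowest Isg15 level of the classes in both libraries. Erythroid barcodes held Isg15 in 10.4% in wt and 5.98% in db/db, the latter near the 6.54% of db/db neutrophils. The part of free RNA in these shares was not tested.

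**Figure D5:**
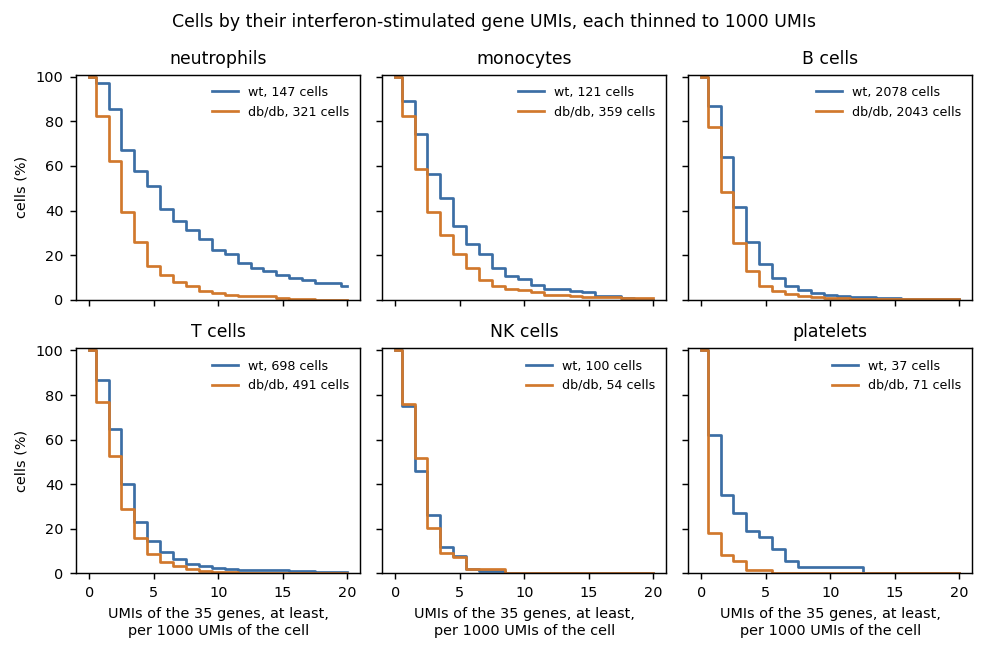
Share of cells (percent, vertical) that hold at least the number of UMIs of the 35 genes on the horizontal axis, each cell thinned to 1000 UMIs, for wt (blue) and db/db (orange) in 6 classes, 1 library each. At 5 UMIs the neutrophil curves stand at 51.0% and 15.0%, and the NK curves at 8% and 7.41%.

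The order of the classes was then read for each gene. In wt, 14 of the 35 genes had their highest level in neutrophils and 12 in monocytes. B cells led for Ifi203, Ifi209 and Samd9l, NK cells for Xaf1 and Epsti1, platelets for Ifit1 and Ifit2, T cells for Ifi213 and erythroid barcodes for Rsad2. In db/db, 8 genes had their highest level in neutrophils and 14 in monocytes. The leading class was the same in both libraries for 27 genes, and for 9 of these its interval lay clear of the next class in both. Isg15 passed from neutrophils in wt to erythroid barcodes in db/db, and Ifi27l2a from neutrophils (1453 CPM, with monocytes at 1324 CPM and overlapping intervals) to monocytes.

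Rsad2 and Isg15 were the leading genes of the list in erythroid barcodes, where Rsad2 made up 38.6% of the list's UMIs in wt and 38.5% in db/db, and Isg15 18.4% and 12.4%. Barcodes with under 200 genes, which were not kept and are mostly haemoglobin-rich droplets, held 75.1% of all Rsad2 UMIs in wt and 79.0% in db/db. The ratio of Rsad2 to haemoglobin served to compare the classes with that source. For every 1000 haemoglobin UMIs, erythroid barcodes held 0.556 Rsad2 UMIs in wt and 0.486 in db/db. Neutrophils held 1.56 and 0.346, T cells 0.584 and 0.248, and B cells 0.449 and 0.235. Monocytes held 0.862 and 0.459, and NK cells 0.427 and 0.0754. Among these leukocytes, wt neutrophils, monocytes and T cells stood above the wt erythroid value for Rsad2, and every db/db class stood below the db/db one. The part of red cell RNA in these levels was not tested. For Isg15 the neutrophil values were 2.51 and 0.217, against 0.265 and 0.157 in erythroid barcodes. The haemoglobin share was 17.0% of UMIs in wt and 27.0% in db/db neutrophils, higher in db/db, where both genes were lower.

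The rest of the interferon pathway was read from lists of ligands, receptors and kinases, sensors, and further targets. Of 21 interferon ligand genes, the type I and type III genes had 0 UMIs in all barcodes, apart from 2 UMIs of Ifnk in db/db. Ifng, the gene for interferon-gamma, was counted 60 times in wt and 15 times in db/db, mostly in NK cells (39 and 12 UMIs, 108 and 69.0 CPM, log2 ratio -0.58). At this depth, levels of type I ligand messages in blood cells could not be compared.

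Receptor and kinase genes had medians nearer to 0 than the 35 genes in neutrophils, monocytes, B cells and T cells. Of 15 such genes, 13 were measured in neutrophils with 2 past 1.5-fold lower, a share near the 16.9% of all genes, and a median of -0.39, and 14 in monocytes with 0 past the limit and a median of -0.14. Of all genes measured in monocytes, 6.28% were lower and 4.63% higher. In B cells 0 were lower and 1 higher of 14 (median 0.01), where 1.08% and 0.694% of all genes were. T cells had 1 lower and 1 higher of 14 (median -0.05), beside 1.39% and 1.32% of all genes. NK cells had 1 and 1 of 12 (10.5% and 13.5% of all genes). Platelets had 3 and 0 of 4 (27.3% and 10.4% of all genes), and erythroid barcodes 0 and 0 of 14 (0.399% and 6.39%). The interferon-gamma receptor gene Ifngr1 was higher in db/db, at 420 and 633 CPM in monocytes (0.58) and 136 and 255 CPM in T cells (0.86), with 445 and 489 CPM in NK cells. Jak1 was at 402 and 369 CPM in neutrophils, 354 and 430 CPM in B cells, 489 and 506 CPM in T cells, and 962 and 977 CPM in NK cells. Socs3, a feedback inhibitor, was at 640 and 528 CPM in neutrophils, and the phosphatase gene Ptpn6 at 367 CPM in both neutrophil libraries, 410 and 297 CPM in monocytes, and 329 and 275 CPM in B cells. NK Stat3 was at 108 and 92.0 CPM. In platelets Jak1 was at 550 and 495 CPM and Jak2 at 194 and 109 CPM, and in erythroid barcodes Jak1 was at 65.1 and 94.8 CPM and Ptpn6 at 42.3 and 59.8 CPM.

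Nucleic acid sensors and their adaptors, 19 genes of which were listed under the symbols used, had 4 lower and 0 higher of 10 measured in neutrophils (median -0.42, with 16.9% of all genes lower), 2 and 0 of 18 in monocytes (6.28% of all genes lower), and 0 and 0 of 18 in B cells. T cells had 0 and 0 of 14, NK cells 3 and 0 of 5 (10.5% of all genes lower), and erythroid barcodes 0 and 0 of 14, and 0 were measured in platelets. Of all genes, 1.08% were lower and 0.694% higher in B cells, and 1.39% and 1.32% in T cells. In erythroid barcodes 0.399% were lower and 6.39% higher. Unc93b1, which carries the endosomal Toll-like receptors, was at 181 CPM in wt against 102 CPM in db/db neutrophils (log2 ratio -0.77), 341 and 295 CPM in monocytes, 346 and 332 CPM in B cells, and 58.9 and 67.9 CPM in erythroid barcodes. Myd88, the adaptor of these receptors, and its kinase gene Irak4 were at 221 and 165 CPM and at 72.9 and 51.7 CPM in neutrophils. Irf5 was at 165 and 189 CPM and Tlr7 at 107 and 88.6 CPM in monocytes. Irak1 and Irf5 were at 86.5 and 85.3 CPM and at 87.2 and 79.9 CPM in B cells, and at 22.4 and 21.5 CPM and 12 and 18.2 CPM in erythroid barcodes. In T cells Irak1 was at 58.3 and 59.7 CPM, Irf3 at 48.2 and 45.9 CPM and Ikbke at 52.0 and 33.1 CPM. In NK cells Irak1 was at 91.7 and 34.5 CPM, Tmem173 (the STING gene) at 58.4 and 34.5 CPM and Tbk1 at 47.3 and 40.2 CPM.

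A further 72 genes of the type I response, 67 of them listed, were lower past 1.5-fold for 15 of 37 measured in neutrophils (median -0.45, beside -0.19 for all genes), 16 of 54 in monocytes (-0.26 beside -0.04), 3 of 55 in B cells (-0.16 beside -0.01) and 2 of 50 in T cells (-0.23 beside -0.04), with 0 higher in each. Of all genes, 16.9%, 6.28%, 1.08% and 1.39% were past the limit lower in these 4 classes. NK cells had 2 lower and 3 higher of 21 (0.15), platelets 4 and 1 of 15, and erythroid barcodes 0 and 3 of 47. Of all genes, 10.5% were lower and 13.5% higher in NK cells, 27.3% and 10.4% in platelets, and 0.399% and 6.39% in erythroid barcodes. The counts of these 3 classes thus lie near the background. In neutrophils the membrane proteins Ifitm1 and Ifitm2, which block viral fusion, were at 4467 and 3213 CPM and at 3460 and 3084 CPM, and Slfn2 at 1007 and 1206 CPM. In monocytes Ifitm3 was at 3651 and 3183 CPM, Ly6e at 1770 and 1276 CPM and Ifitm2 at 1368 and 1318 CPM. B cells had Ly6e at 1876 and 1898 CPM, Shisa5 at 734 and 620 CPM and Mndal at 438 and 397 CPM. T cells had Ms4a4b at 1404 and 1481 CPM, Ms4a6b at 690 and 650 CPM and Shisa5 at 693 and 497 CPM. NK cells had Ms4a4b at 1404 and 1276 CPM, Shisa5 at 461 and 512 CPM and Ly6e at 353 and 650 CPM, the last with a log2 ratio of 0.86. Platelets had Tspo at 711 and 1005 CPM, Cnp at 200 and 365 CPM and Ifitm3 at 317 and 290 CPM, and erythroid barcodes had Ube2l6 at 644 and 528 CPM, Isg20 at 369 and 389 CPM and Ly6e at 276 and 439 CPM.

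Interferon-gamma targets, a list of 35 genes that includes antigen presentation and the immunoproteasome, were lower past 1.5-fold for 7 of 15 in neutrophils (median -0.56) with 0 higher, and split 4 and 4 of 23 in monocytes (-0.21). Of all genes, 16.9% were lower and 4.48% higher in neutrophils, and 6.28% and 4.63% in monocytes. B cells had 1 lower and 1 higher of 24 (1.08% and 0.694% of all genes), and T cells 3 and 0 of 28 (1.39% and 1.32%). NK cells had 2 and 2 of 15 (near the 10.5% and 13.5% of all genes). Platelets had 2 and 1 of 4 (27.3% and 10.4% of all genes), and erythroid barcodes 0 and 1 of 20 (0.399% and 6.39%). In neutrophils Irf1 was at 176 and 169 CPM, Psmb9 at 178 and 147 CPM and Psmb8 at 170 and 145 CPM. In monocytes the immunoproteasome gene Psmb8 was at 504 and 426 CPM, its activator gene Psme1 at 415 and 378 CPM and Irf8 at 327 and 311 CPM. B cells had Irf8 at 360 and 333 CPM, Psmb8 at 328 and 334 CPM and Ciita at 316 and 275 CPM, and T cells had Psmb8 at 296 and 325 CPM, Psme1 at 297 and 245 CPM and Psme2 at 164 and 141 CPM. In NK cells Irf8 was at 664 CPM in wt against 328 CPM in db/db (log2 ratio -1.0), while Psmb8 (336 and 448 CPM) and Psme1 (311 and 448 CPM) were higher in db/db. Platelets had Igtp at 395 and 429 CPM, Cd274 at 97.0 and 181 CPM and Psme1 at 103 and 51.3 CPM, and erythroid barcodes had Irf8 at 52.3 and 79.3 CPM, Ciita at 65.4 and 61.0 CPM and Psmb8 at 45.8 and 76.0 CPM.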

How the data were processed

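The authors deposited raw UMI counts per gene and barcode for both libraries, made with Cell Ranger 3.0.2 on mm10 per the submitters' processing notes, and the deposited counts are used as they stand. The smallest deposited barcode held 500 UMIs, and the filter that left it is not given in the sources used here. Kept barcodes (200 to 6000 genes, under 10% mitochondrial) were clustered with scanpy 1.11.5 and Leiden 0.10.2 (2000 variable genes, 30 components, 15 neighbours, resolution 1), leaving out the 35 genes, the further type I list and the interferon-gamma list. A cluster took a class with at least 3 class markers among its 50 leading genes and 2 among the first 10, and none where another class had 5. The thresholds for naming were chosen after seeing the data. No doublet caller was run. A cell carries markers of several lineages when it holds at least 2 UMIs of another class's core markers, and classes without such cells are an alternative. UMIs were summed per class and library, without a test, since each group is 1 library, and the 3 mice of a group cannot be told apart in it. Total UMIs per class ran from 154631 in wt platelets to 6600822 in wt erythroid barcodes, where 3 counts are 19.4 and 0.454 CPM. TMM factors came from edgeR 4.0.16. The 35 genes, the lists and the rules were chosen with earlier results of these data known. The genes named are the 12 with the most UMIs, the 2 lowest and 2 highest log2 ratios of the others in each class, those past 1.5-fold against the class median, and up to 3 genes of each other list by UMIs; any further gene named was chosen after its values were seen. Values of 1 gene of the receptor and kinase list are not reported here. Gene positions are of GRCm38. The scripts were tested on simulated data.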

Additional observations from a re-analysis of the deposited data

Results flagged for a closer look

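Barcodes outside the analysis, with under 200 genes, held most UMIs of Rsad2 and Isg15. For Rsad2 the share was 75.1% in wt and 79.0% in db/db (11250 and 14025 UMIs), and for Isg15 it was 64.2% and 68.6% (3449 and 2867 UMIs). For Ifit1 the shares were 16.8% and 20.2%.

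A few genes had ratios of db/db to wt on opposite sides of 1 in different classes, each with a counting interval clear of 1, and the difference between the classes was not tested. Ifi203 was at 0.168 in platelets and 1.2 in erythroid barcodes. Ifi209 was at 0.165 in platelets and 1.19 in erythroid barcodes. Ifi35 was at 0.644 in monocytes and 3.22 in NK cells, the latter on 9 wt and 14 db/db UMIs.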

How the results depend on the processing

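No paired analysis was possible because each group is 1 library. The summed ratio stayed below 1 in neutrophils (0.334 to 0.424), monocytes (0.610 to 0.730), B cells (0.674 to 0.838), T cells (0.684 to 0.793), platelets (0.186 to 0.626) and erythroid barcodes (0.592 to 0.935) under each of 14 alternatives, and ran from 0.893 to 1.05 in NK cells. The cause of the shifts below was not tested. For neutrophils (0.340) it was 0.388 without cells of several lineages, 0.378 with every cell weighed the same, 0.379 with haemoglobin, mitochondrial and Gm42418 UMIs left out, 0.424 with TMM, 0.366 thinned and 0.418 without the 3 genes with the most UMIs. For monocytes (0.628) it was 0.693 with classes from marker UMIs, 0.730 without cells of several lineages, 0.691 weighed the same, 0.674 with TMM, 0.686 in the largest cluster, 0.704 thinned and 0.723 without those 3 genes. For B cells (0.702) it was 0.678 at 500 genes or more, 0.674 with haemoglobin, mitochondrial and Gm42418 UMIs left out, 0.838 in the largest cluster and 0.755 without the 3 genes. For T cells (0.724) it was 0.755, 0.684 and 0.793 at 500 genes, in the largest cluster and without the 3 genes. Classical monocytes (0.442) moved to 0.504 weighed the same and 0.564 with the clusters of all cells, and nonclassical ones (0.835) to 0.686 with the latter, settings chosen after seeing the data.

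The count past 1.5-fold lower in neutrophils (22) was 14 without cells of several lineages, 14 thinned and 13 at a minimum of 50 UMIs, where fewer genes are tested. In monocytes (12) it was 6 in the largest cluster, 4 thinned, 5 at 2-fold and 5 with 50 CPM added. In B cells (4) it was 2 at 2-fold, 14 with 1 CPM added and 1 with 50. In T cells (6) it was 11 with classes from marker UMIs, 11 without cells of several lineages, 10 weighed the same, 10 thinned, 1 at 2-fold, 11 with 1 CPM added and 1 with 50. In NK cells (3) it was 1 without cells of several lineages, 0 thinned, 1 at 2-fold and 1 with 50 CPM added. Over 16 alternatives the count ran from 0 to 6 in platelets (4) and from 0 to 17 in erythroid barcodes (2). Thinning or leaving out cells can also leave fewer genes measured. The shares of all genes past the limit under these alternatives are not given, so the counts cannot be set against a background. The median log2 ratio ran from -1.64 to -0.74 in neutrophils, -0.48 to -0.11 in monocytes, -0.45 to -0.15 in B cells, -0.47 to -0.17 in T cells, -0.23 to 0.26 in NK cells, -1.86 to -0.62 in platelets and -0.68 to -0.05 in erythroid barcodes. Of the single-gene log2 ratios, 3 turned: Xaf1 in monocytes was 0.20 thinned, and Rsad2 in platelets was 0.061 at a mitochondrial limit of 20% and 0.47 without cells of several lineages. With 12 genes measured in NK cells and 4 in platelets, depth limits both classes.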
